A study of Homo sapiens with 9 samples.

Results

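Transcripts of 10 genes of the BCL2 family, which sets the threshold for apoptosis at the mitochondrion, were followed in K562 cells that had been given the calreticulin gene (CALR) in 1 of 3 versions. The genes were chosen by name: the anti-apoptotic BCL2, BCL2L1 and MCL1, the effectors BAX and BAK1, and the BH3-only genes BID, BMF, BBC3, PMAIP1 and BCL2L11. All 10 were measured, out of 18239 genes on the array. K562 is an established human line of chronic myeloid leukaemia that carries the BCR-ABL fusion kinase and lacks functional p53. The cells received wild-type CALR, the Del52 form or the Ins5 form by retroviral infection in 4 cycles, 1 every 12 h, followed by 36 h of culture. Cells positive for the NGFR surface marker were then selected magnetically as a pool, with a purity above 90% when checked 48 h later. Each group had 3 arrays, with RNA from 100000 cells per sample. Del52 is a deletion and Ins5 an insertion, both known from myeloproliferative neoplasms, where they change the end of calreticulin, a chaperone of the endoplasmic reticulum (ER). The control also carries a CALR construct, the labels mention no disruption of the cells' own CALR gene, and no untransduced cells were analysed here. The series title frames the question as one of mutant CALR and the cell's handling of unfolded proteins and oxidative stress.

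Proteins of the BCL2 family act on the outer mitochondrial membrane. Anti-apoptotic members bind and restrain the effectors BAX and BAK1, which otherwise form pores that release cytochrome c, and BH3-only members carry stress signals by occupying the anti-apoptotic members or activating the effectors. In the response to ER stress, transcription of BH3-only genes such as PMAIP1, BBC3 and BCL2L11 is known to be raised by factors that include ATF4 and CHOP (DDIT3), and in cells driven by BCR-ABL, survival leans on BCL2L1 and MCL1.

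The promoters of 3 members are shown because PMAIP1 and BCL2L11 varied in opposite directions over the 9 arrays and BAX had the largest positive difference between Del52 and wild type. Each is the 250 bases before the RefSeq start on GRCh38.p14, and all 3 lie on the plus strand (PMAIP1 at chr18:59899746-59899995, BCL2L11 at chr2:111120664-111120913, BAX at chr19:48954625-48954874). Capitals mark matches on either strand to the E-box CACGTG, the GC box GGGCGG and the FOXO core GTAAACA.
PMAIP1: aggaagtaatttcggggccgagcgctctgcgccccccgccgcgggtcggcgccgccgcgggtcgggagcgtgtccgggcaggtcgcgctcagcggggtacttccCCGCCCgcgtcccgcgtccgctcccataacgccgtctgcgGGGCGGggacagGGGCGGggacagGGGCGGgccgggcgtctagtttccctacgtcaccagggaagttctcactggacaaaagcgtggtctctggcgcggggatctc
BCL2L11: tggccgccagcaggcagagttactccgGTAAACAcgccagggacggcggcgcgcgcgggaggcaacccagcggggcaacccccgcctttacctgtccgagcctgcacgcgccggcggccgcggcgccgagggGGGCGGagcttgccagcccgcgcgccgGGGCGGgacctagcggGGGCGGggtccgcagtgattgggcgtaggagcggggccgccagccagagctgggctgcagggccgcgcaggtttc
BAX: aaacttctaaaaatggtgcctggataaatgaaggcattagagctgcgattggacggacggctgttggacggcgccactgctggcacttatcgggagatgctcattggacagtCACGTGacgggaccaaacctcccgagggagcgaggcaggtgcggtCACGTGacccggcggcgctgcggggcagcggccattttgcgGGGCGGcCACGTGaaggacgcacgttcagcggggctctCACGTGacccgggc

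The motif counts of these windows describe sequence alone. The PMAIP1 window held 4 matches to the GC box, a motif present in 42.6% of 35116 windows of the same length. The BCL2L11 window held 3 GC boxes and 1 FOXO core, which 2.98% of all windows hold. The BAX window held 4 E-boxes, where 6.34% of all windows hold at least 1, and 1 GC box. No match was found in any of the 15 windows of the 9 members that had one in the table to the cAMP response element TGACGTCA (1.65% of all windows), the ATF4-CHOP core TGATGCAA (0.772%) or the STAT spacing TTCNNNGAA (6.57%). Only the letters given were searched, so partial or variant sites were not counted, and the motifs may overlap one another.

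Values are log2 expression per probe set as deposited, and each gene is represented by its brightest probe set on average across the arrays. A level depends on its probes as well as on the transcript, so the members are not ranked by level, and comparisons with the median of all genes or with control probe sets are coarse. Of the K562 list of erythroid and leukaemia genes, 11 of 12 measured members lay above the median of all genes (4.31), with a list median of 8.34. The medians were 2.95 for granulocyte and monocyte markers (1 of 10 above the median of all genes), 3.27 for lymphoid markers (1 of 9) and 3.39 for fibroblast and epithelial markers (4 of 11). The CALR probe set averaged 7.57 in wild type, 7.42 in Del52 and 7.40 in Ins5. It is not known here where its probes lie relative to the constructs, so it does not check the labels. Correlations over the 36 pairs of arrays ran from 0.974 to 0.998. One axis, the first principal component of all other genes, held 70.5% of the variance. Wild-type replicates 2 and 3 lay at its ends (scores of -0.57 and 0.58), and Del52 replicate 1 stood apart on the second component (0.79, with 10.0% of the variance).

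None of the 10 members passed the test in any comparison. In limma, with Benjamini-Hochberg adjustment over all 18239 genes, the smallest adjusted p among members was 0.603 in Del52 against wild type, 0.637 in Ins5 against wild type and 0.841 in Del52 against Ins5. Over all genes 0 passed in each comparison (0% of genes). At an unadjusted limma p under 0.05 there were 4 members in Del52 against wild type, where 7.05% of all genes (1285) met that mark. The count was 1 member in Ins5 against wild type (7.41% of all genes, 1351) and 2 members in Del52 against Ins5 (5.77%, 1052). The F test over the 3 groups had 3 members at an unadjusted p under 0.05 (7.23% of all genes, 1318) and a smallest adjusted limma p of 0.669 among members. Members differed by up to 0.41 on the log2 scale, and their standard errors ran from 0.04 to 0.36, so the members were known with very unequal precision.

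Arrays of Del52 and wild type did not overlap for 4 members: BMF and BAX lay higher in every Del52 array, and MCL1 and BBC3 lower. Over all genes, 10.6% had no overlap in this comparison (6.23% higher and 4.36% lower in Del52). For Ins5 against wild type, BMF alone among the members had no overlap, and it lay higher in Ins5 (11.5% of all genes, 8.16% higher and 3.3% lower). For Del52 against Ins5, MCL1 and BCL2 lay lower and BAX higher without overlap (10.1% of all genes, 3.81% higher and 6.28% lower). The median difference of the members was 0.06 in Del52 against wild type, with 6 positive and 4 negative, beside 0.01 over all genes. It was 0.06 in Ins5 against wild type, again with 6 positive (0.02 over all genes), and -0.15 in Del52 against Ins5 with 4 positive (-0.01 over all genes). The comparisons share samples, so they are not independent of each other. In RNA from a pool of cells, fewer cells with a transcript and less transcript per cell cannot be told apart.

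**Figure D1:**
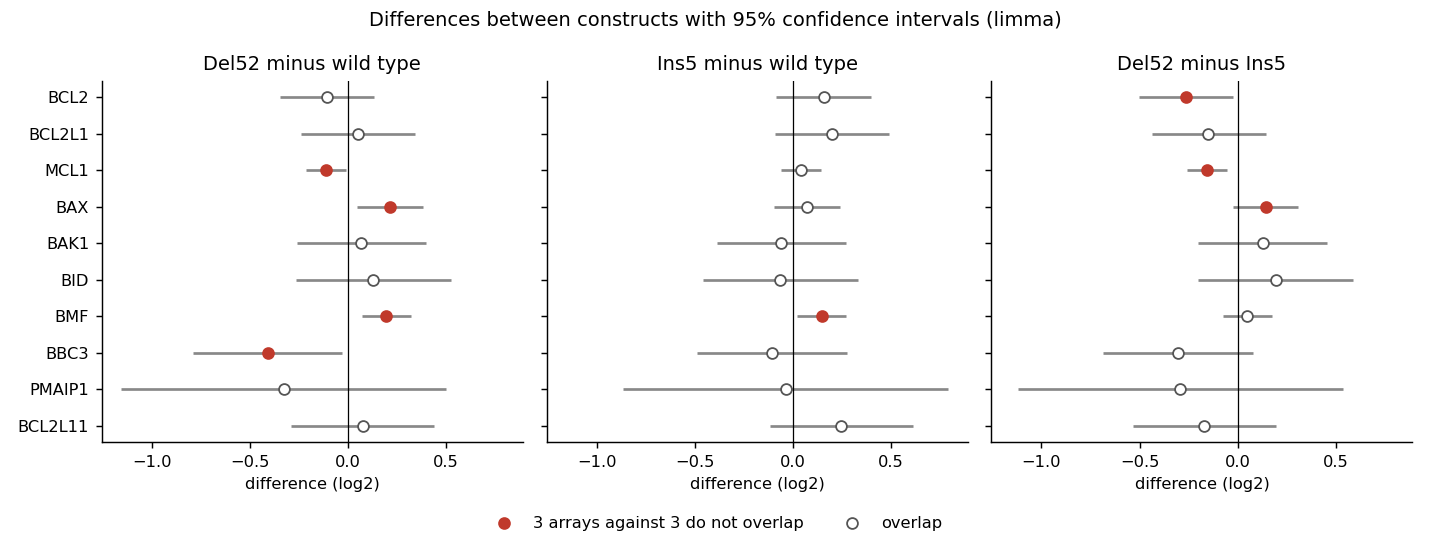
Difference between constructs on the log2 scale for each of the 10 members (x axis), as limma estimates with 95% confidence intervals, 3 arrays a group. Filled points mark members whose arrays do not overlap between the groups: 4 in Del52 minus wild type, 1 in Ins5 minus wild type and 3 in Del52 minus Ins5.

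Among anti-apoptotic members, MCL1 had the tightest values. MCL1 is a short-lived protein that binds BAK1 and several BH3-only proteins. It read 8.89, 8.94 and 8.94 in Del52 replicates 1 to 3, 9.13, 9.02 and 9.08 in Ins5, and 9.01, 9.08 and 9.02 in wild type. Every Del52 array lay below every other array, while Ins5 and wild type overlapped. Group means (± SD, n = 3) were 8.92 ± 0.03 for Del52, 9.08 ± 0.05 for Ins5 and 9.04 ± 0.04 for wild type. Del52 differed from Ins5 by -0.15 ± 0.04 (SE; limma adjusted p = 0.841, unadjusted p = 0.00797) and from wild type by -0.11 ± 0.04 (limma adjusted p = 0.667, unadjusted p = 0.0335). Ins5 and wild type differed by 0.04, with a 95% interval from -0.06 to 0.14. Groups accounted for 79.2% of the variance of MCL1 over the arrays, where the median over all genes was 21.3%. This share went with a small spread within groups (SD 0.041, at or above that of 9.18% of all genes). The range of MCL1 over the arrays (0.241) was at or above that of 33.0% of all genes. Without any 1 of the 9 arrays, the Del52 difference from wild type stayed between -0.12 and -0.09 and that from Ins5 between -0.18 and -0.13.

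BCL2, the founding member of the family, read 4.41, 4.62 and 4.73 in Del52, 5.04, 4.75 and 4.76 in Ins5, and 4.68, 4.76 and 4.64 in wild type. Every Del52 array lay below every Ins5 array, by a small margin (4.73 against 4.75), and wild type overlapped both. The difference of Del52 from Ins5 was -0.26 ± 0.10 (SE; limma adjusted p = 0.844). Without Del52 replicate 1, the lowest array, it was -0.18, and without Ins5 replicate 1, the highest, it was -0.17. Against wild type the differences were -0.11 for Del52 (adjusted p = 0.924) and 0.16 for Ins5 (adjusted p = 0.830, limma). Single arrays carried much of both: the former was -0.019 without Del52 replicate 1, and the latter 0.063 without Ins5 replicate 1.

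BCL2L1, which encodes the protective BCL-XL and the shorter BCL-XS, varied more within groups than between them (27.6% of its variance lay between groups). Its values were 7.25, 7.37 and 7.58 in Del52, 7.64, 7.41 and 7.59 in Ins5, and 7.41, 7.51 and 7.12 in wild type, and all groups overlapped. The largest difference was Ins5 over wild type, at 0.20 with a 95% interval from -0.09 to 0.49 (limma adjusted p = 0.795). It was 0.09 without wild-type replicate 3, the lowest array.

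Of the effectors, BAX had the clearer pattern. It read 5.78, 5.88 and 5.75 in Del52, 5.57, 5.71 and 5.69 in Ins5, and 5.70, 5.46 and 5.60 in wild type. Every Del52 array was above every other array, and Ins5 and wild type overlapped. The mean level of BAX (5.68) lay within the span of the nonspecific control probe sets (means of 1.56 to 6.35, set by base content), as did those of BCL2, BAK1 and BMF. The top of that span was a single control, and the next highest read 4.09 to 4.29 over the arrays. BAX, BAK1 (5.10) and BCL2 (4.71) lay above that next control and BMF (3.55) below it. BAX was 0.21 ± 0.07 (SE) higher in Del52 than in wild type, a fold of 1.16 (limma adjusted p = 0.632, unadjusted p = 0.0182), and 0.14 ± 0.07 higher than in Ins5 (limma adjusted p = 0.920). Without both wild-type arrays at the ends of the main axis, an alternative added after seeing the data, the difference from wild type was 0.105.

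BAK1, the effector restrained by MCL1 and BCL-XL, showed no separation. Wild type alone spanned 4.91, 5.40 and 4.98, wider than Del52 (5.22, 5.07 and 5.20), and Ins5 read 5.17, 4.82 and 5.12. The differences from wild type were 0.07 for Del52 and -0.06 for Ins5, with limma adjusted p = 0.996 and 1. Their 95% intervals ran from -0.26 to 0.40 and from -0.39 to 0.27.

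BMF is a BH3-only gene linked to the cytoskeleton and to growth factor withdrawal. On the brightest probe sets, it was the only 1 of the 10 members whose wild-type arrays overlapped with neither mutant group. It read 3.66, 3.65 and 3.60 in Del52, 3.57, 3.52 and 3.68 in Ins5, and 3.44, 3.50 and 3.39 in wild type. The lowest mutant array (3.52) was close to the highest wild-type array (3.50). BMF was 0.195 ± 0.055 (SE) higher in Del52 (limma adjusted p = 0.603, unadjusted p = 0.00751) and 0.146 ± 0.055 higher in Ins5 (adjusted p = 0.637, unadjusted p = 0.0284). Both differences share the wild-type arrays. The BioB hybridisation control, a spike added to every array, separated the constructs in the same way: it averaged 6.11 to 6.20 in Del52, 6.08 to 6.11 in Ins5 and 5.94 to 6.06 in wild type. Its part in the result was not tested. BMF was also the only member of the 10 whose level lay below the median of all genes, and it was within the span of the nonspecific controls.

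BBC3, which encodes PUMA, a BH3-only protein that binds all anti-apoptotic members, read 5.92, 6.49 and 6.46 in Del52. In Ins5 it read 6.80, 6.46 and 6.52, and in wild type 6.86, 6.63 and 6.61. Every Del52 array lay below every wild-type array, and Ins5 overlapped both. The Del52 difference, -0.41 ± 0.16 (SE), was the largest of any member in that comparison, a fold of 0.753 (limma adjusted p = 0.671, unadjusted p = 0.0377). It was -0.23 without Del52 replicate 1, the array that stood apart on the second component. Against Ins5 it was -0.30 (limma adjusted p = 0.944), and -0.12 without that array.

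PMAIP1, which encodes NOXA, a BH3-only protein that binds MCL1, varied most of all members. It read 7.97, 8.71 and 8.01 in Del52, 8.77, 8.71 and 8.09 in Ins5, and 8.57, 7.90 and 9.21 in wild type. The lowest and the highest array were both wild type, 1.31 apart, a range wider than or equal to that of 96.7% of all genes. Group means (± SD, n = 3) were 8.23 ± 0.41 for Del52, 8.52 ± 0.37 for Ins5 and 8.56 ± 0.65 for wild type. Del52 differed from wild type by -0.33 with a 95% interval from -1.16 to 0.50 (limma adjusted p = 0.938), which leaves room for a difference of either sign. It was -0.003 without wild-type replicate 3 and -0.66 without wild-type replicate 2. Ins5 differed from wild type by -0.04, with an interval from -0.87 to 0.79.

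BID, cleaved by caspase-8 to link death receptors to mitochondria, read 7.62, 7.70 and 7.42 in Del52, 7.33, 7.60 and 7.24 in Ins5, and 7.48, 7.12 and 7.77 in wild type. Its groups overlapped in every comparison, and wild type held both ends. The differences were 0.13 for Del52 and -0.06 for Ins5 against wild type (limma adjusted p = 0.965 and 1) and 0.19 for Del52 against Ins5 (adjusted p = 1.00).

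BCL2L11, which encodes BIM, an activator of BAX and BAK1, read 6.46, 6.20 and 6.37 in Del52, 6.38, 6.40 and 6.77 in Ins5, and 6.28, 6.54 and 5.99 in wild type. All groups overlapped here too. Ins5 was 0.25 above wild type, with a 95% interval from -0.12 to 0.61 (limma adjusted p = 0.808). The difference was 0.12 without Ins5 replicate 3 and 0.11 without wild-type replicate 3.

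**Figure D2:**
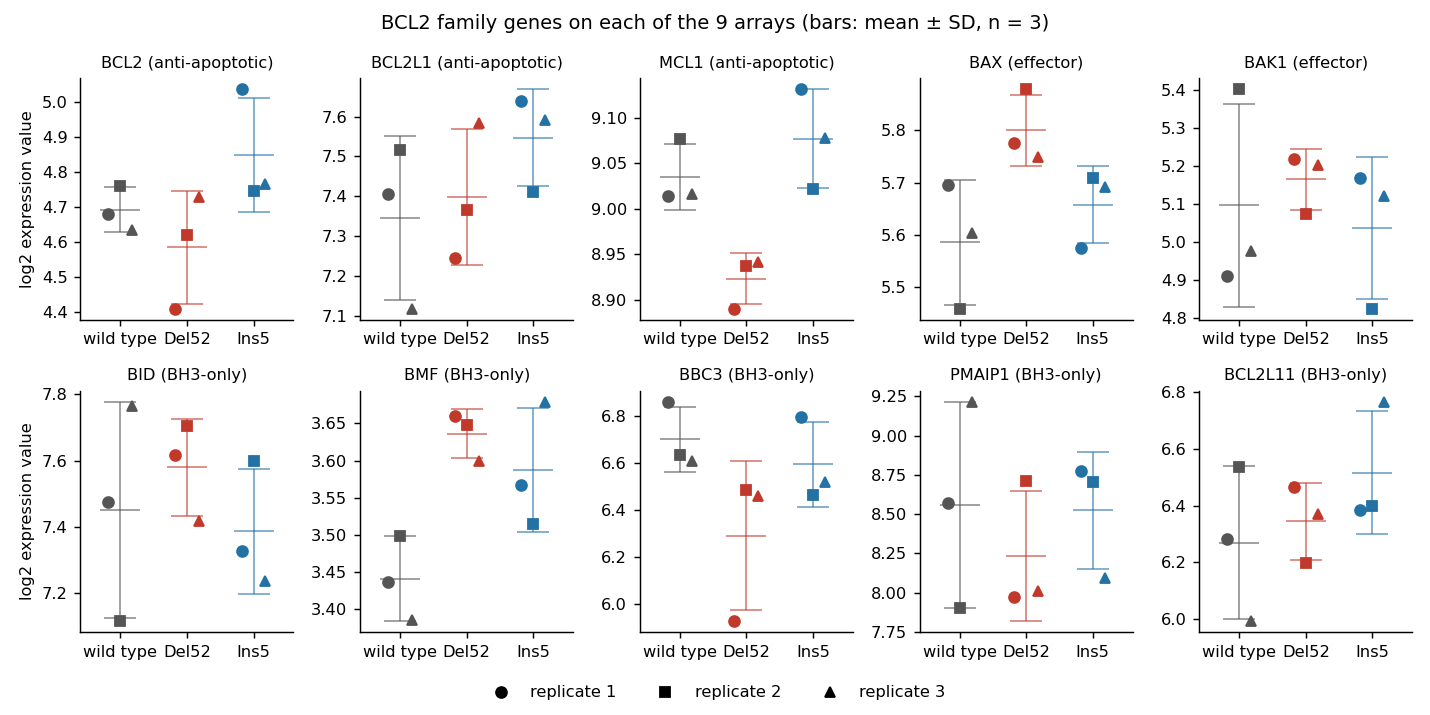
Log2 expression value (y axis, a separate scale for each gene) of the 10 members on the 9 arrays, by construct, with markers for replicates and bars for the mean ± SD of 3 arrays. All 3 Del52 arrays sit below the rest for MCL1 and above the rest for BAX, while the wild-type arrays of PMAIP1 span 7.90 to 9.21.

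Averaged by role around each gene's mean over the arrays, the anti-apoptotic genes were lowest in Del52 replicate 1 (-0.20) and highest in Ins5 replicate 1 (0.22). The other Del52 arrays read -0.08 and 0.03, inside the wild-type span of -0.13 to 0.07. The effectors, here only BAX and BAK1, averaged 0.11, 0.09 and 0.08 in Del52 and at most 0.04 in any other array. BAK1 by itself showed no separation, and with group means removed it ran opposite to BAX (r = -0.868). The share of gene pairs whose average separates in this way was not computed. The BH3-only genes averaged -0.15, 0.08 and -0.10 in Del52 and spanned -0.14 to 0.12 in wild type, so no separation by construct was seen there. These averages mix genes with opposite behaviour and carry no test.

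The array had 48 probe sets for the members, and 38 of them did not stand for their gene. Of the 10 that did, 4 (BCL2, BCL2L1, BAX and BID) carry the suffix x, which marks probes that can also match other transcripts, and that of MCL1 carries the suffix s, which marks probes shared by several transcripts. In the fit over 45253 probe sets, 0 of the 48 passed in any comparison, while 7 had an unadjusted limma p under 0.05 in Del52 against wild type (14.6%, beside 6.87% of all probe sets). The count was 2 in Ins5 against wild type (4.17%, beside 7.41%) and 7 in Del52 against Ins5 (14.6%, beside 6%). BMF held several of the 7 in Del52 against wild type, with differences of 0.195, -0.217 and 0.237. Probe sets of 1 gene are not independent, so these shares are not read as a result about the members. The spread between probe sets of 1 gene shows how far each result rests on the choice of probe.

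For MCL1, 4 of 5 other probe sets were also lower in Del52 than in wild type. The second brightest had a mean of 8.30 for Del52, 8.41 for Ins5 and 8.44 for wild type. It was lower in Del52 than in wild type by 0.14 with no overlap, and the opposite sign came from a dimmer one (0.12). Against Ins5 the second brightest gave -0.12 with overlap, and the rest lay between -0.04 and 0.02, where the main one gave -0.15. The next sets in brightness were below wild type in Del52 (-0.255 and -0.274) and about as far in Ins5 (-0.235 and -0.291). That Del52 alone was low for MCL1 thus rested mainly on the brightest probe set. For PMAIP1, the second probe set followed the first almost exactly (r = 0.995 over 9 arrays) and gave -0.32 in Del52 against wild type. Its wide scatter among arrays was thus measured by both probe sets. For BID, all 3 others followed the main one (r from 0.896 to 0.934).

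Probe sets disagreed for other members. One BMF probe set was lower in every Del52 array than in wild type (difference of means -0.22), and another was higher (0.24), both without overlap. In Ins5 against wild type, the BMF probe sets other than the main one all overlapped (0.13, -0.04 and 0.07). The second BBC3 probe set gave -0.02 where the first gave -0.41. The second BAX probe set gave 0.13 ± 0.22 (SE) in Del52 against wild type, and its arrays overlapped. For BCL2, 3 of 5 others had the opposite sign. For BCL2L11, 13 of 13 others were higher in Del52 than in wild type, by 0.03 to 0.32, as was the main one (0.07). The main one was -0.063 without wild-type replicate 3, and the others were not refitted without it. The set with the largest difference (0.32) read 3.64, 4.31 and 2.82 in wild-type replicates 1 to 3. The shared sign may thus rest on 1 array. Against Ins5, however, 10 of the 13 others had the sign opposite to the main probe set. Probe sets of 1 gene share RNA and often bases, so they are not replicates.

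**Figure D3:**
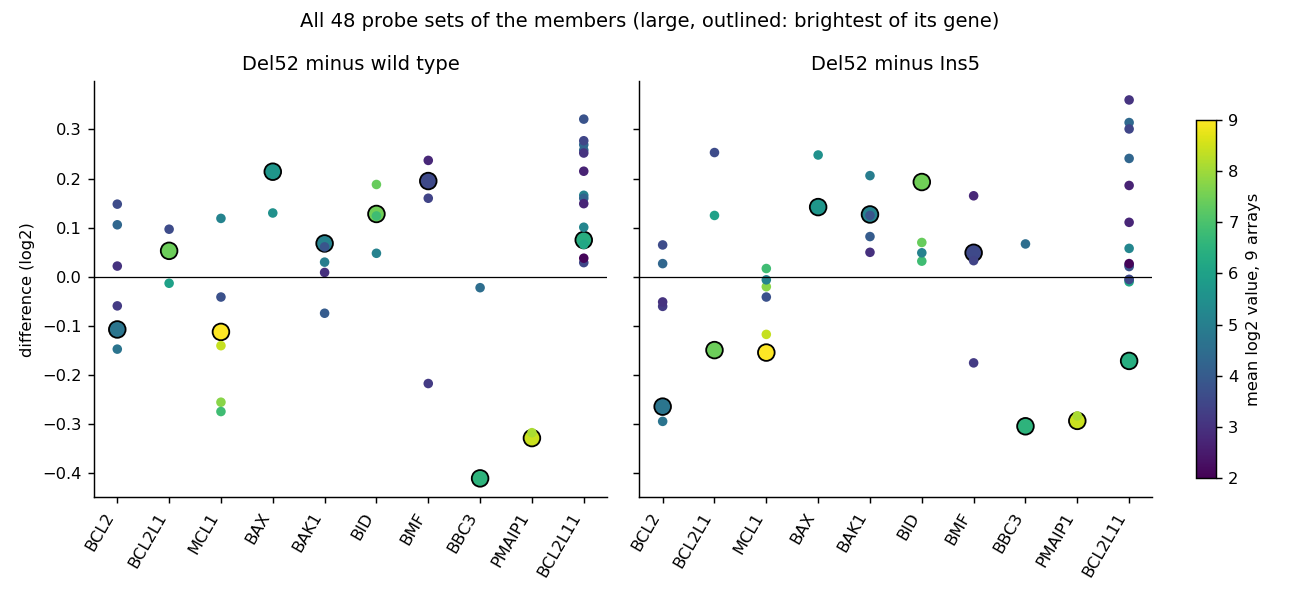
Difference of Del52 from wild type and from Ins5 (y axis, log2) for all 48 probe sets of the members, by gene, coloured by mean level over 9 arrays. The brightest probe set of each gene is large and outlined. In Del52 minus wild type the MCL1 sets sit mostly below 0, the BCL2L11 sets all above, and the BMF sets span -0.22 to 0.24.

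The scatter of several members followed the main axis of all other genes, here turned so that PMAIP1 scored positive. Over 9 arrays, PMAIP1 had Pearson r = 0.925 (exact permutation p = 4.299e-04, adjusted over the 10 members 0.00430) and Spearman rho = 0.883 (exact p = 0.00308, adjusted 0.0308). BID had r = 0.87 (exact p = 0.00276, adjusted 0.0138) and rho = 0.833 (exact p = 0.00827, adjusted 0.0413). Both genes were thus high in the arrays at 1 end of the axis, whichever construct these carried.

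The opposite sign was seen for BCL2L11, with r = -0.802 (exact permutation p = 0.00995, adjusted 0.0332) and rho = -0.783 (exact p = 0.0172, adjusted 0.0574). BAK1 had r = -0.754 (exact p = 0.0191, adjusted 0.0478) and rho = -0.683 (exact p = 0.0503, adjusted 0.126). For both, the adjusted rank test missed the threshold. Without the wild-type arrays at the ends of the axis, r over 7 arrays was 0.861 for PMAIP1, 0.691 for BID, -0.692 for BCL2L11 and -0.613 for BAK1. With group means removed from all 9 arrays, r was 0.967 for PMAIP1, 0.963 for BID, -0.929 for BCL2L11 and -0.782 for BAK1, so the relation was present within groups.

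This relation is not particular to these members. Over all genes the median size of r with the axis was 0.558, and 16.9% of genes exceeded 0.9. The size of r was at or above that of 86.7% of all genes for PMAIP1 and 79.3% for BID. For BCL2L11 it was at or above that of 72.2%, and for BAK1 67.6%, so many genes reached the values of these members. The actin 3-prime minus 5-prime difference, a measure of RNA integrity and labelling, followed the axis in part. It was 1.33, 1.38 and 1.31 in the arrays with the highest scores (Del52 replicate 2, Ins5 replicate 2 and wild-type replicate 3). In the arrays with the lowest scores it was 1.24, 1.24 and 1.08 (Del52 replicate 3, Ins5 replicate 3 and wild-type replicate 2). It did not follow throughout: wild-type replicate 1 had the highest difference of all (1.39) at a middling score (0.05). Its part in the result was not tested. MCL1 (r = -0.164, exact permutation p = 0.673), BBC3 (r = 0.098, exact p = 0.802) and BCL2 (r = -0.137, exact p = 0.758) showed little relation to the axis. BCL2L1 had r = -0.643 (exact p = 0.0618), BMF -0.39 (exact p = 0.297) and BAX 0.325 (exact p = 0.398).

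**Figure D4:**
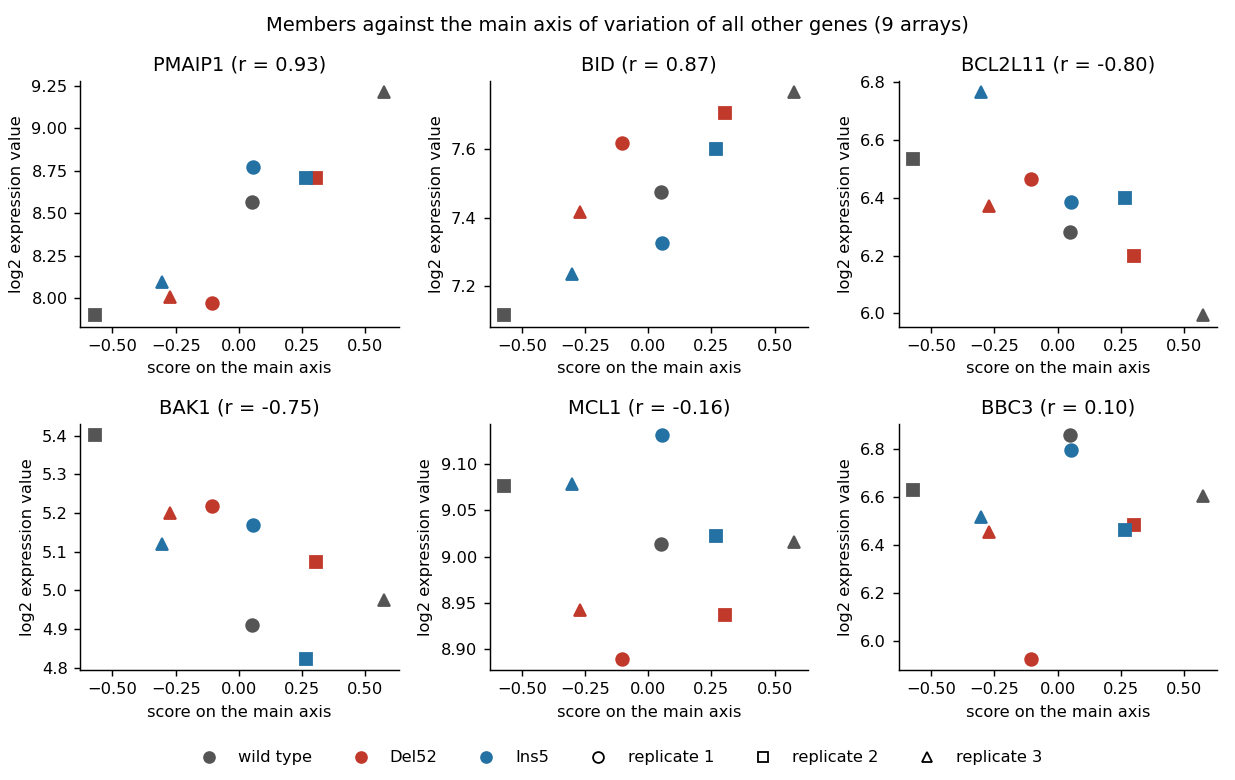
Log2 expression value (y axis) of 6 members against the score of each array on the main axis of all other genes (x axis, no unit), coloured by construct, with markers for replicates. PMAIP1 (r = 0.93) and BID (0.87) run upward, BCL2L11 (-0.80) and BAK1 (-0.75) downward, and MCL1 and BBC3 show no slope; all 3 Del52 arrays are low for MCL1, and Del52 replicate 1 for BBC3.

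Among the 45 pairs of members, 9 had an unadjusted exact permutation p under 0.05 for Pearson r. After adjustment over the pairs 0 passed for r, while 2 passed for Spearman rho. The same share over pairs of all genes was not computed. With 70.5% of the variance on 1 axis, the counts are not read as particular to the family. BCL2 and MCL1 had the smallest p (r = 0.857, exact p = 0.00216, adjusted 0.0972), with rho = 0.933 (exact p = 7.496e-04, adjusted 0.0337). Without the 2 arrays farthest from the BCL2 median r was 0.614, and with group means removed it was 0.851. BCL2 and BCL2L1 were the other pair by rank, with rho = 0.9 (exact p = 0.00203, adjusted 0.0456) and r = 0.742 (exact p = 0.0207, adjusted 0.139). Without 2 arrays chosen the same way r was 0.765. These pairs rest on the brightest probe sets. The other sets correlated with them at -0.378 to 0.704 for BCL2, -0.098 to 0.408 for BCL2L1 and -0.067 to 0.741 for MCL1.

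The gene outside the family most like each member by Pearson r over the 9 arrays was found among 9101 genes above the median level. As the top of so many candidates, each r is a description only. For PMAIP1 it was MAP1LC3B (0.996) and for BID it was RFC2 (0.995). For BCL2L1 it was H2AC25 (0.995), for BBC3 SOCS2 (0.99), for MCL1 PIGF (0.989), for BCL2 S100P (0.988), for BCL2L11 CTTN (0.983), for BAK1 TMEM120A (0.972), for BAX HMCES (0.97) and for BMF CFAP73 (0.941). The share of candidates with r beyond 0.9 in either direction was 19.0% for PMAIP1 and 10.3% for BID but 0.407% for MCL1, so many genes followed the scatter of the former and few that of the latter.

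Other genes of the pathway were read from 6 lists, and none of their members passed in any comparison (limma adjusted p over all genes). Transcription factors upstream of BH3-only genes had 0 of 14 measured members called. Their median difference was -0.20 in Del52 against wild type (10 of 14 lower; 0.01 over all genes), -0.03 in Ins5 against wild type (8 of 14 lower; 0.02 over all genes) and -0.20 in Del52 against Ins5 (14 of 14 lower; -0.01 over all genes). Over all genes, 54.6% were higher in Del52 and 59.6% in Ins5 than in wild type, and 45.4% in Del52 than in Ins5. Genes of a list were read from the same arrays, so their signs are not independent. CEBPB, a stress-responsive factor, had the smallest p in both Del52 comparisons. It read 7.85, 8.37 and 8.24 in Del52, 8.76, 8.37 and 8.41 in Ins5, and 8.66, 8.53 and 8.63 in wild type. CEBPB was lower in every Del52 array than in wild type (-0.46 ± 0.15 SE, limma adjusted p = 0.625). The difference was -0.30 without Del52 replicate 1. Against Ins5 it was -0.36 (limma adjusted p = 0.860), but -0.21 without Del52 replicate 1 and -0.24 without Ins5 replicate 1. The list median in Del52 against Ins5 was -0.11 without Del52 replicate 1 and -0.31 without Del52 replicate 2. In Del52 against wild type it was -0.12 without Del52 replicate 3 and -0.33 without Del52 replicate 2. For Ins5 against wild type the smallest p belonged to TP73 (0.16, limma adjusted p = 0.927), a relative of p53.

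The medians of the other 5 lists lay between -0.10 and 0.05. Of 15 other BCL2 family genes, 7 were higher and 8 lower in Del52 than in wild type (median -0.05), and 9 were higher in Ins5 than in wild type (median 0.02). BCL2L10 had the smallest p in both (0.13 and 0.11, limma adjusted p = 0.603 and 0.611), at a mean level of 2.13, within the span of the nonspecific controls. In Del52 against Ins5 the median was -0.04, and BCL2L15 had the smallest p (0.12). Of 11 measured genes of the mitochondrial pathway and apoptosome, 7 were higher in Del52 and 7 in Ins5 than in wild type (medians 0.04 and 0.01), and 6 in Del52 than in Ins5 (0.02). CASP9, the initiator caspase of the apoptosome, was 0.15 ± 0.05 (SE) higher in Del52 than in wild type (limma adjusted p = 0.606) and 0.09 higher than in Ins5, the smallest p of the list in both. AIFM1, a mitochondrial flavoprotein released in cell death, had it in Ins5 against wild type (0.10, limma adjusted p = 0.611).

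Caspase inhibitors had 3 of 7 members higher in Del52 (median -0.06) and 2 of 7 in Ins5 (-0.04) than in wild type, and 3 of 7 in Del52 than in Ins5 (-0.00). NAIP (0.14, Del52 against wild type) and BIRC6 (-0.35 for Ins5 against wild type and 0.23 for Del52 against Ins5) had the smallest p. Death receptor genes had 7 of 13 members higher in Del52 (median 0.03) and 11 of 13 in Ins5 (0.05) than in wild type. In Del52 against Ins5, 5 of 13 were higher (-0.10). Of all genes, 59.6% were higher in Ins5 than in wild type. The decoy receptor TNFRSF10D had the smallest p in both Ins5 comparisons, 0.29 above wild type (limma adjusted p = 0.521) and -0.16 for Del52 against Ins5. FAS, a death receptor, had it in Del52 against wild type (0.09). Genes for turnover and phosphorylation of BCL2 family proteins had medians of -0.01, -0.01 and -0.01 in the 3 comparisons, with 7, 8 and 6 of 16 higher. DYNLL2, the dynein light chain that binds BMF, was 0.20 higher in Del52 than in wild type and 0.26 higher than in Ins5 (limma adjusted p = 0.707 and 0.841). FBXW7, a ubiquitin ligase subunit that targets MCL1, was at -0.11 in Ins5 against wild type (limma adjusted p = 0.651).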

How the data were processed

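The 9 Affymetrix arrays (3 per construct) come as a deposited table with 1 log2 value per probe set and array. Partek and RMA are named by the submitters' processing notes, without version or settings. RMA is a method that subtracts background, equalises arrays and combines the probes of a set. That the scale is base 2 was judged from the range of values. RMA draws arrays to a common distribution, so a change shared by most genes could not be seen. Arrays give no read depth, and their number limits the precision.

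Of 49386 probe sets, 93 controls, 1327 with several symbols and 2713 with none were left out. The remaining 45253 had 1 symbol in the platform annotation, and 45172 of these were found among the RefSeq genes of GRCh38.p14. The probe set with the highest mean stood for each of 18239 genes. The linear model (limma 3.58.1, run in R 4.3.3) took every array into 1 fit with a mean per group and no block, leaving 6 residual degrees of freedom, with two-sided tests and a threshold of 0.05 on the Benjamini-Hochberg adjusted p. Correlations over arrays were tested two-sided by exact permutation, enumerating all 362880 pairings in Python 3.11.15 with numpy 2.4.6. The fits were tested on simulated data. Nothing in the labels says that replicates came from separate cultures, so p-values measure only the spread between these samples.

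The members and lists were chosen with earlier results of these data known. Named were all members, CALR, the passing or smallest-p gene of each list, and the most similar gene per member. NGFR, the selection marker, had means of 3.42 (Del52), 3.43 (Ins5) and 3.36 (wild type), below the median of all genes (4.31). It is not known here whether its probes match the marker in the construct, so it does not check the selection. Alternatives covered normalization, filter, probe sets, test, samples, block, covariate and each array left out. Promoters are from RefSeq, with 9 of 10 members matched.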

Additional observations from a re-analysis of the deposited data

How the results depend on the processing

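No member passed in any comparison under quantile normalization, median centring, the filter on level, the mean of all probe sets, an intensity trend, unmoderated variances, 6 arrays per comparison or any 1 array left out. The replicate number as a block also called 0 genes and 0 members. Deviations of same-numbered Del52 and Ins5 arrays correlated at 0.643 and 0.565 for replicates 2 and 3, but at -0.555 for replicate 1. Those of wild type were negative against both mutants (-0.923 to -0.328). By these correlations alone, the numbers showed no common pairing of arrays across all 3 constructs. Replicates 2 and 3 of wild type lay on the opposite side of the main axis from those of Del52 and Ins5. A grouping of arrays across replicate numbers was not tested. Limma's array weights were the exception. They called 2 members in Del52 against wild type (BMF 0.20, adjusted p = 0.0140; BBC3 -0.66, adjusted p = 0.0167), 2 in Ins5 against wild type (BMF 0.14, adjusted p = 0.0150; BCL2 0.25, adjusted p = 0.0412) and 5 in the F test. Over all genes they called 3190 (17.5%), 4017 (22%) and 5345 (29.3%) in these tests, with a member median of 0.111 in Ins5. That estimate stopped before it converged and gave wild-type replicate 1 a weight of 67.0, against at most 1.82 for any other array. Gene-by-gene weights (at most 3.56), added after the data were seen, called 0 members. Over all genes, unmoderated variances called 2, 9 and 1 in the 3 comparisons, and the first principal component as covariate called 4 in Del52 and 7 in Ins5 against wild type, no member among them.

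The median over the members ranged, with 1 array left out, from -0.032 to 0.067 in Del52 against wild type, from 0.039 to 0.09 in Ins5 against wild type and from -0.192 to -0.087 in Del52 against Ins5. It was 0.005 in Del52 against wild type without Del52 replicate 3, and -0.032 without wild-type replicate 3. In Del52 against Ins5 it was -0.097 without Del52 replicate 1 and -0.087 without Ins5 replicate 3. With the mean of all probe sets it was -0.027 in Ins5 against wild type and 0.047 in Del52 against Ins5.

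Signs of small differences, none of which passed the test in the chosen fit, depended on settings. With all probe sets of a gene averaged, the sign was opposite in Ins5 against wild type for BCL2L1 (-0.031), MCL1 (-0.064), BAX (-0.023) and BID (0.036). In Del52 against Ins5 it was opposite for BCL2L1 (0.076) and BCL2L11 (0.104). With array weights, the sign was opposite in Del52 against wild type for BCL2L1 (-0.037). In Ins5 against wild type it was opposite for BAX (-0.071), BAK1 (0.175) and PMAIP1 (0.075). With gene-by-gene weights, the sign was opposite in Del52 against wild type for BCL2L1 (-0.012). In Ins5 against wild type it was opposite for BAX (-0.033), BAK1 (0.11) and PMAIP1 (0.042). With wild-type replicates 2 and 3 both left out, the sign was opposite in Del52 against wild type for BCL2L1 (-0.007). In Ins5 against wild type it was opposite for BAX (-0.037) and BAK1 (0.127). With single other probe sets, the sign was opposite in Del52 against wild type for BCL2 (0.106, 0.148 and 0.022), BCL2L1 (-0.013), MCL1 (0.119), BAK1 (-0.074) and BMF (-0.217). In Ins5 against wild type it was opposite for BCL2L1 (-0.138 and -0.155), MCL1 (-0.023, -0.235 and -0.291), BAX (-0.119), BID (0.118 and 0.092), BMF (-0.042) and BCL2L11 (-0.045, -0.024 and -0.108). In Del52 against Ins5 it was opposite for BCL2 (0.027 and 0.065), BCL2L1 (0.125 and 0.253), MCL1 (0.017), BMF (-0.175), BBC3 (0.067) and BCL2L11 (0.058, 0.314, 0.241, 0.024, 0.021, 0.301, 0.36, 0.111, 0.186 and 0.027). Leaving out 1 array gave, in Del52 against wild type, BAK1 from -0.025 to 0.221, BCL2L1 from -0.061 to 0.137, BCL2L11 from -0.063 to 0.208 and BID from -0.04 to 0.285. Leaving out 1 array gave, in Ins5 against wild type, BAK1 from -0.152 to 0.094, BID from -0.233 to 0.092 and PMAIP1 from -0.366 to 0.29.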
